A study of Mus musculus with 4 samples.

Results

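The Hedgehog pathway was followed through 8 genes, the ligands Shh and Ihh, the receptor Ptch1, the signal transducer Smo, the transcription factors Gli1, Gli2 and Gli3, and the decoy receptor Hhip. They were taken by name from the 34866 genes of the deposited count table, and all 8 were among the 14067 genes that passed the filter on low counts. The samples were gastric mucosa from the corpus, the acid-secreting body of the stomach, of mice with genotype Muc6 +/+ (wild type, 2 libraries) or Muc6 -/- (knockout, 2 libraries). Muc6 encodes a mucin that gastric gland cells secrete, and the stated purpose was to relate its loss to gastric carcinogenesis. The sources used here do not give strain, age, treatment or the kind of deletion, nor whether each library stands for a mouse of its own. The p-values therefore set the difference between genotypes against the spread between these libraries, estimated in part across genes. Whether that spread is one between mice is not known, and it may be technical.

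Hedgehog ligands are secreted lipid-modified proteins. They bind Ptch1, which otherwise holds Smo inactive, and active Smo changes the Gli proteins from repressors into activators of transcription. Ptch1, Gli1 and Hhip are themselves induced by the signal, so their transcripts are commonly read as its output. In the adult stomach the ligands come from the epithelium, with Shh made by parietal and pit cells, and the fibroblasts and smooth muscle below respond.

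Total counts were 27946423 and 20895793 in wild type 1 and 2 and 20327745 and 21717123 in knockout 1 and 2. Levels are given as CPM, the counts normalised to a common library size after scaling each total by its TMM factor. The targeted gene followed the labels, with 344 and 312 CPM of Muc6 in the wild-type libraries but 0 and 0.413 CPM in the knockout libraries. Knockout 1 stood apart in regional genes, because Nkx6-3, an antral transcription factor gene, had 2716 counts in knockout 1 but 11 in knockout 2 and 9 and 6 in the wild-type libraries. Gast, the gastrin gene of the antrum, had 218 counts in knockout 1 and at most 1 elsewhere. Pdx1, the other antral marker, had 1316 counts in knockout 1 and 61 in knockout 2, against 7 and 1 in wild type. The 4 chief cell markers summed to 64310 and 147700 CPM in wild type, 2318 CPM in knockout 1 and 81330 CPM in knockout 2. The 6 squamous forestomach markers summed to 156 and 12.96 CPM in knockout but to 0.847 and 0.260 CPM in wild type, with Trp63 at 0 in all 4 libraries. The 4 Y-linked genes summed to 136 and 121 CPM in the wild-type libraries but 1.43 and 2.44 CPM in the knockout ones. Genotype therefore cannot be told apart from Y-linked expression, or from the sex it marks, in any comparison here, that of Shh included.

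The libraries numbered 2 in the labels held more stromal transcripts than those numbered 1 in both genotypes. The 10 fibroblast markers summed to 59.6 CPM in wild type 1, 657 CPM in wild type 2, 79.6 CPM in knockout 1 and 573 CPM in knockout 2. The 10 smooth muscle markers summed to 352, 2144, 476 and 2228 CPM in the same order. All 10 of 10 markers in each list were higher in both libraries numbered 2, none was at 0, and the genotypes overlapped for every one. In bulk tissue, fewer cells of a type and less RNA per cell cannot be told apart, here and in all that follows.

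By edgeR's quasi-likelihood test with Benjamini-Hochberg adjustment, 0 genes were called higher and 0 lower in knockout at an adjusted p of 0.05, a background of 0% in each direction, and 0 of the 8 pathway genes passed. At an unadjusted p under 0.05 the test marked 9.22% of all genes as higher (1297 genes) and 6.68% as lower (939 genes). Of the 8 pathway genes, 1 was so marked, Shh, as lower. DESeq2 called 571 genes higher and 473 lower, while limma-voom called 0 in each direction. The median log2 fold change of the 8 was -0.57, beside -0.0017 over all genes tested. That median lies between Gli3 (-0.31 ± 1.26, SE) and Gli1 (-0.83 ± 1.62), rare transcripts with errors larger than their fold changes. The libraries of the genotypes did not overlap for 1 member that was higher, Ihh, and 1 that was lower, Shh. Over all genes, 26.3% were higher and 23.8% lower without overlap, so that 2 of 8 is no more than the background. In the fit, 2 of the 8 were higher and 6 lower, beside 49.9% and 50.1% of all genes. Without overlap and with a log2 fold change of at least 1 in size, 0 were higher and 1, Shh, was lower, beside 7.3% and 5.47% of all genes.

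**Figure D1:**
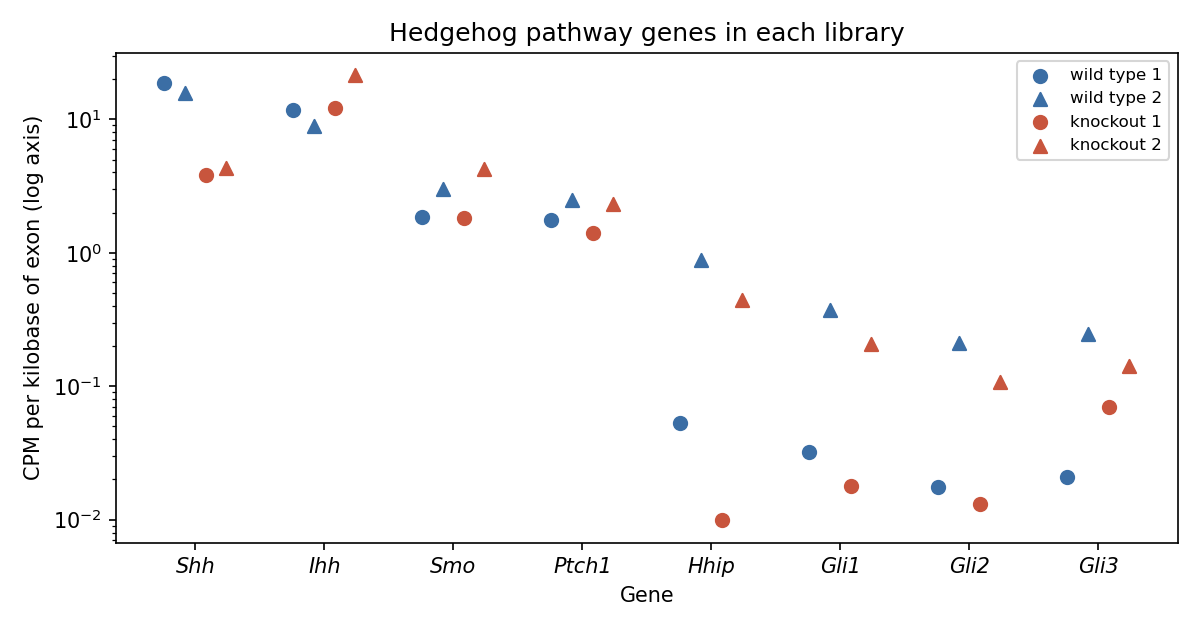
Level of each of the 8 genes in each library, in CPM per kilobase of exon on a log axis, with wild type in blue, knockout in red, circles for libraries numbered 1 and triangles for those numbered 2. Shh separates by genotype, whereas Hhip, Gli1, Gli2 and Gli3 separate by library number.

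Shh, which encodes Sonic hedgehog, lies on the minus strand at chr5:28456815-28467256 (mm10). The wild-type libraries held 1321 and 863 counts of it, and the knockout libraries 245 and 300. In CPM these were 53.3 and 44.9 against 11.0 and 12.4. Both knockout libraries were thus far below both wild-type libraries, and the libraries within a genotype lay close together. The means were 49.1 ± 5.89 CPM and 11.7 ± 0.993 CPM (SD, n = 2 per group). Summed over libraries, the counts were 4.24-fold lower in knockout (exact 95% interval 3.86 to 4.66, counting error only). The log2 fold change was -2.07 ± 0.16 (SE), and the unadjusted edgeR p was 1.7e-04, with an edgeR adjusted p of 0.144. Shh ranked 17 among all genes by p, and 5 genes lower in knockout had a smaller one. DESeq2 gave an adjusted p of 3.0e-14, the lowest of 14 alternatives, and edgeR without wild type 1 gave the highest, 0.738. Without knockout 1, where antral genes were counted, the log2 fold change was -2.03 and the edgeR adjusted p 0.123. Without knockout 2 the adjusted p was 0.0181, but there knockout 1 stood alone and was assumed to vary as the wild-type libraries did. Noncoding genes lie over Shh on the opposite strand (9530036O11Rik and Gm26894), and the sources used here do not say whether counting used strand.

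The summed parietal and pit cell markers were lower in both knockout libraries, as Shh was. The 10 parietal markers summed to 16810 and 16300 CPM in the wild-type libraries but to 836 CPM in knockout 1 and 5363 CPM in knockout 2, and all 10 were lower without overlap, beside 23.8% of all genes. The 6 pit markers summed to 121400 and 80710 CPM against 70620 and 54050 CPM, 4 of them lower without overlap, and no marker of either list was at 0. Tff1 and Mucl3 were the pit markers that overlapped, with log2 fold changes of -0.04 and -0.33. By edgeR's adjusted p, 0 markers of either list passed. The part of these cells in the Shh difference was not tested. Per 1000 counts of the parietal markers there were 3.17 and 2.76 counts of Shh in wild type, 13.1 in knockout 1 and 2.31 in knockout 2. Knockout 1 therefore had more Shh per parietal transcript than any other library, although its Shh level was the lowest. It was also the library with antral transcripts, and its parietal markers held 18671 counts, against 129963 in knockout 2. Per 1000 counts of the pit markers there were 0.439 and 0.557 counts of Shh in wild type compared with 0.155 and 0.229 in knockout, and on that scale the genotypes did not overlap. These ratios were chosen after values were seen, and they are given without a test. The share of all genes without overlap on the pit marker scale was not computed.

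Ihh, which encodes Indian hedgehog, a ligand of the same receptor, lies on the minus strand at chr1:74945315-74951672. The wild-type libraries held 894 and 520 counts of it, and the knockout libraries 835 and 1582. In CPM these were 36.0 and 27.1 against 37.4 and 65.3. Knockout 1 was barely above wild type 1, and knockout 2 was the highest library. Its log2 fold change of 0.70 ± 0.34 (SE) did not pass (edgeR adjusted p = 0.409, n = 2 libraries a group). It was 0.20 without knockout 2, so that 1 library carries most of the difference. The pit markers, lower in sum in both knockout libraries, did not follow Ihh, and per 1000 of their counts there were 0.297 and 0.335 counts of Ihh in wild type compared with 0.530 and 1.21 in knockout.

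The balance between the 2 ligands did not overlap between the genotypes, which follows from Shh being lower and Ihh higher without overlap. Ihh made up 40.4% of the Shh and Ihh counts in wild type 1 (exact Clopper-Pearson 95% interval 38.3 to 42.4) and 37.6% in wild type 2 (35.0 to 40.2). It made up 77.3% in knockout 1 (74.7 to 79.8) and 84.1% in knockout 2 (82.3 to 85.7). Shh was the more abundant ligand transcript in both wild-type libraries and Ihh in both knockout libraries. With counts divided by exon length the shares of Ihh were 38.7%, 36.0%, 76.1% and 83.1% in the same order, so that the order of the ligands did not come from their lengths. The log2 ratio of Ihh to Shh was -0.65 ± 0.12 in wild type compared with 2.08 ± 0.45 in knockout (SD, n = 2 per group), a difference of 2.73. The exact two-sided permutation test gave p = 0.33, the smallest value that 2 libraries against 2 allow. Because each ligand already separated the genotypes, in opposite directions, that value was fixed in advance and adds nothing. The 2 ligands together were at 89.3 and 72.0 CPM in wild type compared with 48.4 and 77.7 CPM in knockout, and these sums overlapped.

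**Figure D2:**
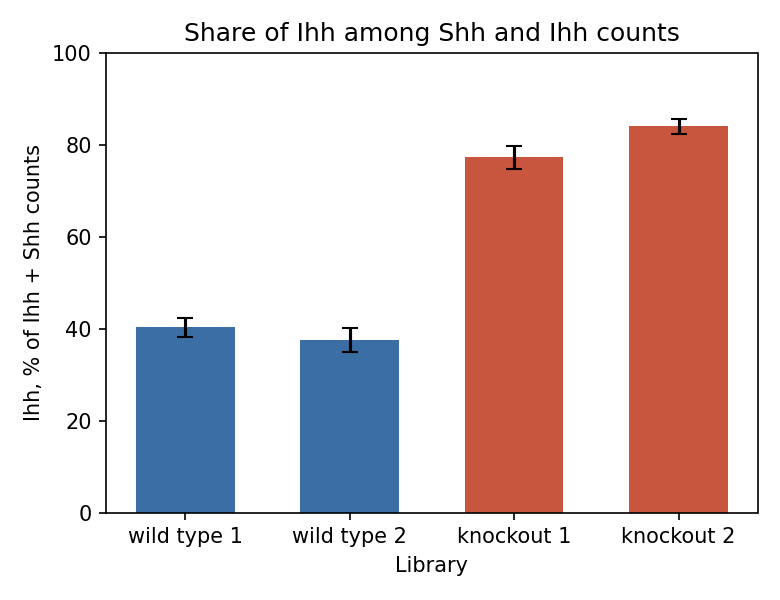
Share of Ihh in the summed Ihh and Shh counts of each library, in percent, with exact 95% binomial intervals that cover counting error only. Both knockout bars (77.3% and 84.1%) stand above both wild-type bars (40.4% and 37.6%).

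Dhh, the gene of the third mammalian ligand, Desert hedgehog, was near the limit of detection. The wild-type libraries held 0 and 7.12 estimated counts of it and the knockout libraries 30.9 and 20.8, at most 1.39 CPM in any library. Its summed counts were 7.02-fold higher in knockout (exact 95% interval 3.18 to 18.3, counting error only). The log2 fold change of 2.66 ± 1.52 (SE) did not pass (edgeR adjusted p = 0.480, n = 2 libraries a group).

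The receptor and the transducer overlapped between the genotypes. Ptch1 (minus strand, chr13:63508328-63573598) was measured at 25.0 and 35.1 CPM in the wild-type libraries compared with 20.1 and 33.1 CPM in the knockout libraries. Smo (plus strand, chr6:29735503-29761365) was at 10.4 and 16.8 CPM against 10.3 and 23.9 CPM. For each gene both libraries numbered 2 were above both libraries numbered 1, whichever the genotype. The log2 fold changes in the edgeR fit were -0.17 ± 0.33 for Ptch1 (adjusted p = 0.844) and 0.33 ± 0.50 for Smo (adjusted p = 0.801), with SE from n = 2 libraries a group. These errors leave room for changes of either sign. Ptch1 turned to 0.086 on the log2 scale without wild type 2 and to 0.087 without knockout 1, and without knockout 2 Smo was at -0.46.

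The remaining 4 genes were rare transcripts. Hhip (minus strand, chr8:79965851-80058006), whose protein binds ligand at the cell surface and limits the signal, had 12 and 154 counts in the wild-type libraries compared with 2 and 98 in the knockout libraries. Gli1 (minus strand, chr10:127329882-127341974), the activator that the pathway itself induces, had 4 and 36 counts against 2 and 25. In both genotypes nearly all counts of Hhip and Gli1 came from the library numbered 2. Gli2 (minus strand, chr1:118834132-119053619), the main activator at the start of a signal, had 3 and 28 counts against 2 and 18. Gli3 (plus strand, chr13:15463235-15730026), which acts mostly as a repressor, had 5 and 45 counts against 15 and 33. In CPM, Hhip was at 0.484 and 8.02 against 0.0896 and 4.04, and Gli1 at 0.161 and 1.87 against 0.0896 and 1.03. For each of the 4 genes knockout 2 lay below wild type 2 and above wild type 1. The gene Arhgap9 overlaps Gli1 on the opposite strand. On the same strand, the pseudogene Gm48343 overlaps Gli3, the pseudogene Gm13717 overlaps Smo, and A930032L01Rik overlaps Ptch1.

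In the edgeR fit the log2 fold changes were -1.03 ± 1.97 for Hhip (adjusted p = 0.848) and -0.83 ± 1.62 for Gli1 (adjusted p = 0.852). For Gli2 and Gli3 they were -0.89 ± 1.57 (adjusted p = 0.834) and -0.31 ± 1.26 (adjusted p = 0.939), each with its SE from n = 2 libraries a group. Every one of these errors exceeded its fold change, so that no difference was detectable at these counts and this spread. The direction of all 4 turned without wild type 2, where the values were 2.08 for Hhip, 1.77 for Gli1, 1.74 for Gli2 and 2.30 for Gli3. Gli3 was at 0.03 without knockout 1.

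The difference between libraries of a genotype was larger for these 4 genes than their fitted difference between genotypes. Gli1 was 11.6-fold higher in wild type 2 than in wild type 1 (exact 95% interval 4.17 to 44.9) and 11.5-fold higher in knockout 2 than in knockout 1 (2.87 to 100). For Hhip the ratios were 16.6 (9.22 to 32.8) and 45.1 (12.2 to 378), and for Gli2 12.1 (3.72 to 61.9) and 8.29 (1.98 to 73.7). The collagen gene Col1a1, a fibroblast marker, gave 12.4 and 7.51, and Des, the muscle filament desmin, gave 6.27 and 4.48. In both genotypes the intervals of Gli1 and Gli2 contained the ratios of both markers, whereas in knockout the interval of Hhip lay above both. Gli3 gave 11.6 (4.63 to 37.5) in wild type but 2.03 (1.07 to 4.02) in knockout. Ptch1 gave only 1.41 (1.26 to 1.57) and 1.65 (1.46 to 1.85), and Smo 1.61 (1.36 to 1.91) and 2.31 (1.98 to 2.71), well short of the markers. Shh gave 0.844 (0.773 to 0.920) and 1.13 (0.950 to 1.34). Among the 8 genes, 6 were higher in both libraries numbered 2, beside 29.1% of all genes tested.

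**Figure D3:**
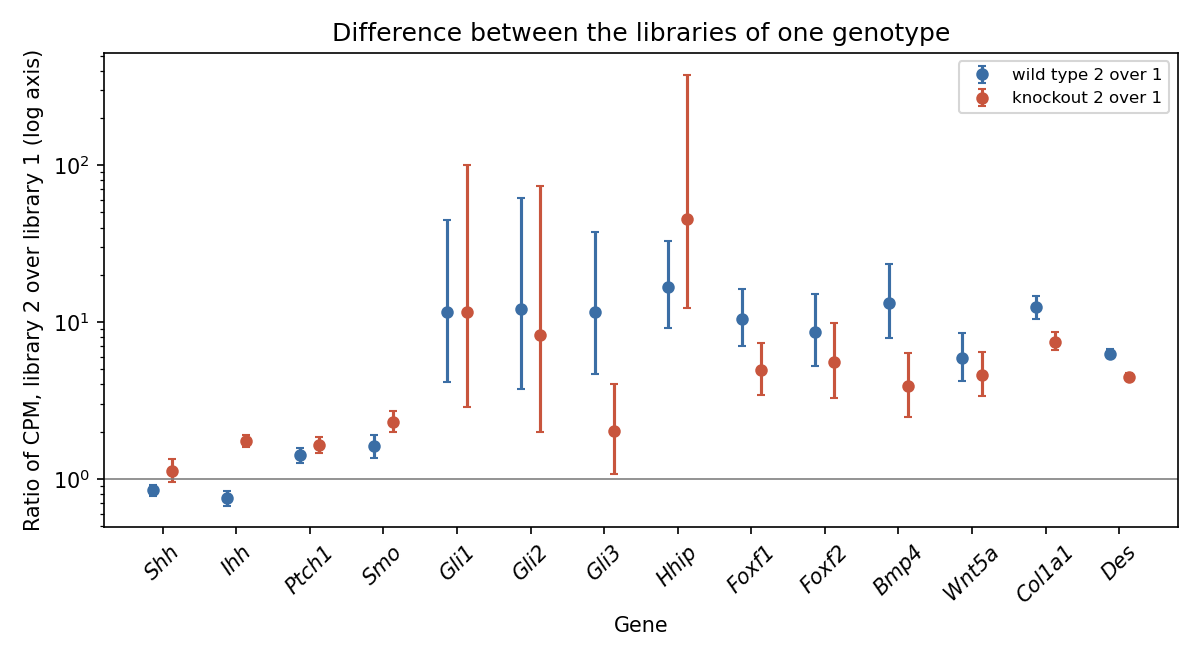
Ratio of CPM between the library numbered 2 and the library numbered 1 of a genotype on a log axis, with exact 95% intervals that cover counting error only, for the 8 pathway genes, 4 stromal genes often counted as pathway targets and the stromal markers Col1a1 and Des. Gli1, Gli2 and Hhip lie among or above the stromal genes, with Hhip farthest above them in knockout at 45.1, while Shh, Ihh, Ptch1 and Smo lie between 0.751 and 2.31.

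Set against the stroma in the same library, the summed counts of the 4 rare genes overlapped between genotypes on 1 marker scale and not on another. Per 1000 counts of the 20 fibroblast and smooth muscle markers, Hhip, Gli1, Gli2 and Gli3 together had 2.35 and 4.89 counts in wild type compared with 1.69 and 2.56 in knockout. Knockout 2 lay above wild type 1 on this scale, so the genotypes overlapped. Taken singly on this scale, Gli1 gave 0.392 and 0.669 in wild type against 0.161 and 0.368 in knockout, without overlap. Gli2 gave 0.294 and 0.520 against 0.161 and 0.265, also without overlap. Hhip (1.18 and 2.86 against 0.161 and 1.44) and Gli3 (0.490 and 0.836 against 1.21 and 0.486) overlapped. Per 1000 counts of the 10 fibroblast markers alone, the 4 genes together had 16.2 and 20.85 counts in wild type against 11.8 and 12.5 in knockout, without overlap. In the libraries numbered 1 the sums rest on 24 and 21 counts, and Gli1 and Gli2 on 2 to 4 counts each. All these ratios were chosen after values were seen, and they are given without a test. In CPM, 23.8% of all genes were lower without overlap, and the share on these ratio scales was not computed. Lack of overlap here is therefore a description only. Ptch1 gave 60.7, 12.5, 36.2 and 11.8 per 1000 counts of the 20 markers in wild type 1 and 2 and knockout 1 and 2. Its counts (619, 674, 449 and 802) varied far less than those of the markers (10203, 53814, 12407 and 67881). The lower ratios in the libraries numbered 2 thus reflect the markers and say nothing of Ptch1 within stroma. Smo, Shh and Ihh also had lower ratios in those libraries.

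Divided by exon length (the union of annotated exons), the order of levels in wild type was Shh (18.7 and 15.8 CPM per kilobase), Ihh (11.8 and 8.88), Smo (1.85 and 2.98), Ptch1 (1.76 and 2.47), Hhip (0.0533 and 0.883), Gli1 (0.0323 and 0.375), Gli3 (0.0210 and 0.244) and Gli2 (0.0176 and 0.212). The 2 ligands did not overlap, nor did Ihh and Smo. Smo overlapped Ptch1, and Hhip, Gli1, Gli3 and Gli2 overlapped each other. In knockout, Ihh (12.3 and 21.4 CPM per kilobase) stood above Shh (3.86 and 4.35), and Shh overlapped Smo (1.83 and 4.24).

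Sequence before the transcription start was available from RefSeq (GRCm38.p6, the same assembly as mm10) for 6 of the 8 genes. It is shown for Hhip and Gli2, which varied together across libraries, and for Ptch1, an induced gene that varied far less. Each line gives the 250 bases before the RefSeq start, 5′ to 3′ in the direction of transcription, and capitals mark the GC box GGGCGG on either strand. The Ptch1 start lies inside the longer GENCODE gene, so the line shows 1 of its promoters.

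Hhip (chr8:80058009-80058258, minus strand): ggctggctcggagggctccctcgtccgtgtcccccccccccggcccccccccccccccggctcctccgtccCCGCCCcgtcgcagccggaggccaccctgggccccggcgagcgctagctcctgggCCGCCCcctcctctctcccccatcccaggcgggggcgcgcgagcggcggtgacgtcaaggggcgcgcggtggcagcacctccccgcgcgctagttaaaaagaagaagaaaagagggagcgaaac
Gli2 (chr1:119053620-119053869, minus strand): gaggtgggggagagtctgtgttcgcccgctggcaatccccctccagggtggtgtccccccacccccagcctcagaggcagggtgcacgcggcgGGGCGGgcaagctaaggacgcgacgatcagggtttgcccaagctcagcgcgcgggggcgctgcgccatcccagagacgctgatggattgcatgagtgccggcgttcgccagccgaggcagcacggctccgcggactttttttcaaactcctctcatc
Ptch1 (chr13:63565736-63565985, minus strand): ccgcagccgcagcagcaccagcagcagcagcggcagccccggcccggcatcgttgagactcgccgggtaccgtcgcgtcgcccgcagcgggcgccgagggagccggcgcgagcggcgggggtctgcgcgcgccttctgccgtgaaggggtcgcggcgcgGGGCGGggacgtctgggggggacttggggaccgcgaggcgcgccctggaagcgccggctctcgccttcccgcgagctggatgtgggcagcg

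The windows searched were 300 bases long and included 50 bases after the start. The consensus bound by Gli proteins, GACCACCCA on either strand, was in 0 of the 6 windows and in 0.253% of all 32851 promoter windows. The GC box was in 5 of the 6 windows (all but Smo) and in 35.7% of all windows. These matches describe letters only, and nothing about Gli binding follows from their absence in so short a window.

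Other genes of the pathway gave 0 calls in every list at an adjusted p of 0.05 in the edgeR fit. Of 10 genes for making and releasing ligand, 9 were tested, with 5 higher and 4 lower in the fit and a median log2 fold change of 0.38. Disp1, the transporter that releases lipid-modified ligand, had 431 and 260 counts in the wild-type libraries compared with 519 and 484 in the knockout libraries. Its log2 fold change was 0.48 ± 0.19 (SE), with adjusted p = 0.345 in the edgeR fit. Disp2, its paralog, gave 1.94 and 5.47 CPM against 9.36 and 4.75 CPM, with overlap. The surface proteoglycan gene Gpc4 gave 8.10 and 11.5 CPM against 14.6 and 13.3 CPM, without overlap. Dhh, Disp1 and Gpc4 were the 3 genes of the list that were higher without overlap, and 0 were lower, beside 26.3% and 23.8% of all genes. The count of 3 among 9 tested is near that background.

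Of 4 co-receptor and ligand-binding genes, 3 were tested, all with a lower value in the fit and all overlapping, with a median of -0.15. Cdon, a co-receptor, gave 15.9 and 15.5 CPM in the wild-type libraries compared with 11.1 and 17.2 CPM in the knockout libraries. Gas1, a co-receptor anchored in the membrane by a lipid, gave 2.50 and 14.9 CPM against 2.42 and 8.67 CPM and thus followed the library number. Boc, a co-receptor related to Cdon, gave 1.01 and 4.11 CPM against 1.25 and 3.51 CPM and also followed the library number.

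All 33 cytoplasmic and ciliary regulators were tested. There were 12 higher and 21 lower in the fit, with a median of -0.13, of which 4 were higher and 12 lower without overlap, beside 26.3% and 23.8% of all genes. At an unadjusted p under 0.05, 1 was lower and 0 higher, beside 6.68% and 9.22% of all genes. That gene was Arrb2, named after its value was seen, with 384 and 289 counts in the wild-type libraries compared with 204 and 258 in the knockout libraries. It encodes a beta-arrestin that acts with Smo, and its edgeR adjusted p was 0.248. Stk36, a kinase gene related to the fly Hedgehog component fused, gave 1.13 and 1.51 CPM against 0.403 and 0.867 CPM (log2 fold change -1.04 ± 0.68). The kinase gene Csnk1a1 gave 324 and 276 CPM against 339 and 267 CPM. Prkar1a, a regulatory subunit of the protein kinase A that prepares Gli proteins for processing, was at 191 and 200 CPM against 177 and 173 CPM. Csnk1d, a casein kinase gene, gave 119 and 115 CPM against 144 and 122 CPM.

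Among 11 further genes often counted as targets, 10 were tested, with 6 higher and 4 lower in the fit and a median of 0.30. The cyclin genes Ccnd1 and Ccnd2, which are also targets of other growth signals, were the 2 marked as higher at an unadjusted p under 0.05, beside 9.22% of all genes. Ccnd2 gave 107 and 104 CPM in the wild-type libraries compared with 418 and 195 CPM in the knockout libraries, a log2 fold change of 1.54 ± 0.42 (SE). Its adjusted p was 0.251 in edgeR but 0.00966 in DESeq2. For Ccnd1 the log2 fold change was 1.65 ± 0.28, with adjusted p = 0.209 in edgeR but 4.1e-05 in DESeq2. Bcl2, a survival gene, gave 6.21 and 9.73 CPM against 9.50 and 13.9 CPM, with overlap. Foxl1, a transcription factor gene of the mesenchyme below the glands, had 2 and 11.7 counts against 13.8 and 25.0 and did not overlap (log2 fold change 1.26 ± 1.11).

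The stromal targets instead followed the library number. Foxf1, a mesenchymal transcription factor gene, gave 1.09 and 11.5 CPM in the wild-type libraries compared with 1.57 and 7.80 CPM in the knockout libraries. Its relative Foxf2 gave 0.726 and 6.30 CPM against 0.762 and 4.21 CPM, and Bmp4, which encodes a secreted signal, gave 0.645 and 8.48 CPM against 1.08 and 4.21 CPM. In each of these 3 genes both libraries numbered 2 were above both libraries numbered 1. Wnt5a, a stromal Wnt ligand gene, had 41.5 and 193 counts against 48.5 and 240 counts. Per 1000 counts of the 20 stromal markers, Wnt5a had 4.07 counts in wild type 1, 3.58 in wild type 2, 3.91 in knockout 1 and 3.54 in knockout 2. On this scale Foxf2 gave 1.764 and 2.248 in wild type against 1.37 and 1.503 in knockout, lower without overlap. Its libraries numbered 1 held only 18 and 17 counts. Foxf1 (2.646 and 4.088 against 2.821 and 2.784) and Bmp4 (1.568 and 3.029 against 1.934 and 1.504) overlapped. These ratios are given without a test. Of the 11 genes, all 9 other than the cyclin genes were higher in both libraries numbered 2.

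**Figure D4:**
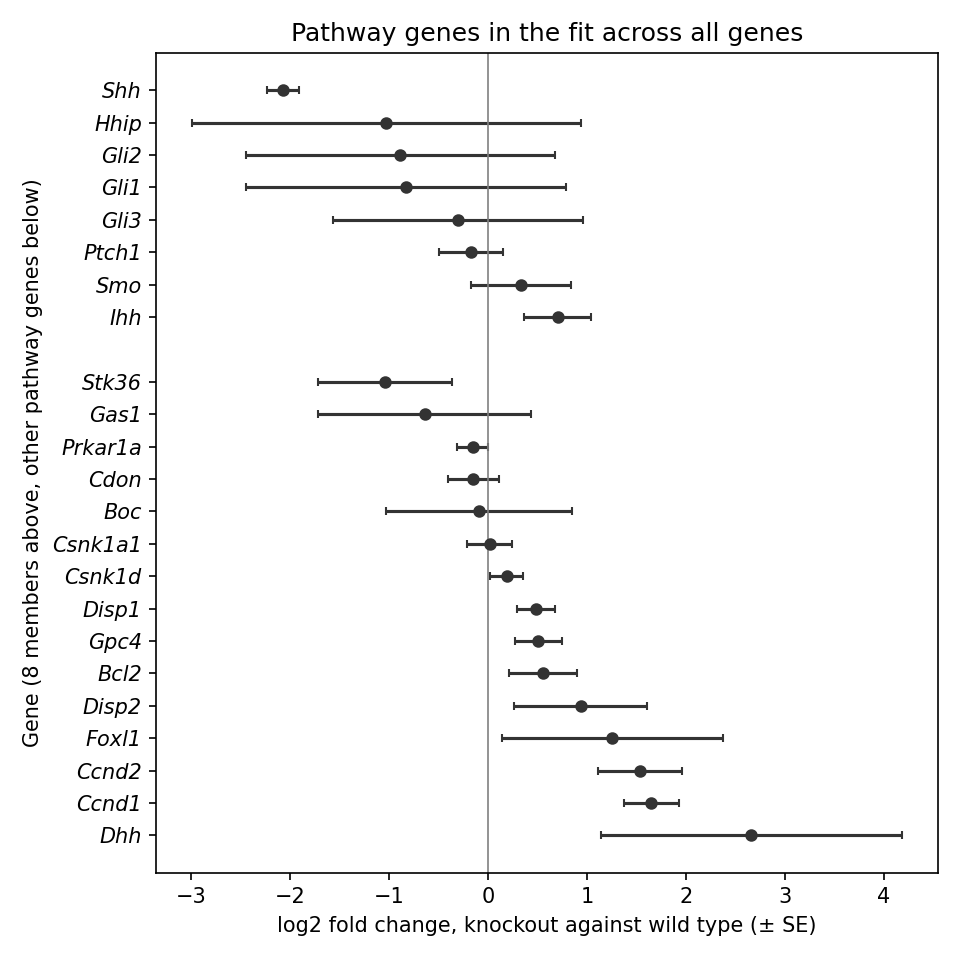
Log2 fold change of knockout against wild type with its standard error, from the fit across all genes, for the 8 pathway genes above and the other pathway genes named by rule below. Shh stands at -2.07 with a short error bar, while the bars of Hhip, Gli1, Gli2 and Gli3 span 0.

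The tested genes with the most similar profile over the 4 libraries, by distance between centred log2 CPM values among 12276 candidates, differed from member to member. Nearest to Shh were Gstk1 (112 and 82.6 CPM against 24.7 and 29.3 CPM), Nnt (32.3 and 33.1 CPM against 7.21 and 7.02 CPM) and Adgrv1. Nearest to Ihh were Grin2d, Galnt6 (146 and 96.4 CPM against 149 and 230 CPM) and Pde2a. Nearest to Gli1 were Plxdc2 (0.605 and 5.36 CPM against 0.358 and 3.05 CPM), Ccdc3 and Cav1, and nearest to Gli2 were Rgl1, Entpd1 and Serpinf1. Hhip was nearest to Svep1, Tcf21 and Mfap4, and Gli3 to Mark1, Ramp1 and Rhoj. For Ptch1 they were Tcp11l2, Cntnap1 and Il17d, and for Smo Pacsin1, Cbx6 and Maged2. With 4 libraries such likeness is a description.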

How the data were processed

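The authors deposited one table of expected counts, 1 column a library, and its values show no sign of normalization. Of its nonzero values 35.0% were not whole, so the counts were rounded before testing. Libraries were made with a stranded polyadenylated RNA kit, per the labels' protocols. The build was mm10, per the submitters' processing notes. The sources used here name no aligner, counting program or annotation. Estimated counts of overlapping or near-identical genes are uncertain. Of 34866 rows, 34582 matched GENCODE M21 by identifier without version, and symbols, positions and exon lengths come from that match.

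Knockout was compared with wild type by edgeR 4.0.16 in R 4.3.3 (quasi-likelihood, robust, TMM, filterByExpr with a minimum of 10 counts, no covariate) on 14067 genes. A fold change's SE is its size over the square root of F. Alternatives included DESeq2 1.42.0, limma 3.58.1 (voom), other scalings and filters, and leaving out each library. Intervals cover counting error only. The libraries of a genotype were not duplicates, with a chi-square per degree of freedom of 139 in wild type compared with 272 in knockout.

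The members, lists and markers were chosen with earlier results of these data known. Named were Muc6, the members, pathway genes without overlap and with a log2 fold change of at least 1 in size, the 3 highest of each pathway list, and the 3 genes nearest each member at a mean of at least 1 CPM (log2 CPM, prior count of 2). Other genes were named after their values were seen. Some pathway genes are not reported here.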

Additional observations from a re-analysis of the deposited data

How the results depend on the processing

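Shh stayed lower under all 14 alternatives, and Ihh stayed higher. Shh passed at an adjusted p of 0.05 with DESeq2 (-2.09) and without knockout 2, where the wild-type libraries alone gave the spread and knockout 1 was assumed to vary like them. Leaving out each library in turn gave -2.21 to -1.94 for Shh, 0.20 to 1.005 for Ihh, -0.64 to 0.0871 for Ptch1, -0.46 to 0.76 for Smo, -3.50 to 1.77 for Gli1, -3.13 to 1.74 for Gli2, -1.19 to 2.30 for Gli3 and -5.56 to 2.08 for Hhip on the log2 scale. Gli3 also turned to 0.63 with limma-voom. Over all genes, 0 were called in each direction, against 571 higher and 473 lower with DESeq2, 5 and 4 with no filter, and 0 to 350 higher and 0 to 501 lower without 1 library, the highest without knockout 2. The causes were not tested. With the filter of 50 counts in 2 libraries, Gli1, Gli2 and Gli3 were not tested. Of the pathway genes named, Csnk1a1 and Wnt5a were near 0 and changed sign with relative log expression factors (to -0.0034 and -0.00029).

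The labels number the libraries 1 and 2 in each genotype, but nothing states that a number marks a shared mouse or day. Over the 14067 genes the difference between the wild-type libraries correlated with that between the knockout libraries (Pearson r = 0.517, across genes). With the replicate number as a block no call changed, Gli3 turned to 0.22, and the values were -2.07 ± 0.17 for Shh, -0.84 ± 0.52 for Gli1, -0.82 ± 0.57 for Gli2 and -1.36 ± 0.50 for Hhip (SE), the last with edgeR adjusted p = 0.226.

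Low counts limit the 4 rare genes: in the libraries numbered 1 each had 2 to 15 counts. Wild type 1 was nevertheless the library with the largest total, 27946423 counts.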
